A study of Mus musculus with 18 samples.

Results

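The 10 genes described here encode integrin chains (Itga3, Itga5, Itga6, Itga7, Itgb1, Itgb5), integrin-linked kinase (Ilk), and 3 laminin chains of basement membranes (Lama2, Lamb2, Lamc1). They were taken from a fixed list of names and found by matching the identifiers of the deposited count table to mouse gene symbols. All 10 were present among the 43430 genes of the table, and all 10 passed the filter on low counts. Each of the 18 libraries holds RNA of quadriceps myofibers from a young adult C57BL/6 mouse (C57BL/6J in the study's methods), and each treatment was given to 3 male and 3 female mice. The treatments, given by injection for a month, were vehicle, prednisone once a week (weekly) or prednisone every day (daily). Prednisone is a synthetic glucocorticoid. Mice of the weekly groups received vehicle on the other days, and no mouse carried a genetic change. The myofibers were what a strainer kept after collagenase digestion, so cells that cling to fibres can be part of a library.

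Integrins are pairs of an alpha and a beta chain that span the cell membrane and bind proteins of the matrix outside. In skeletal muscle, the pair made by Itga7 and Itgb1 binds the laminin of the fibre's basement membrane, which is assembled from an alpha, a beta and a gamma chain. Inside the cell, kinases and adaptor proteins such as Ilk, talin and vinculin tie the integrin tails to actin, and loss of Lama2 or Itga7 is a known cause of muscular dystrophy. Endothelial cells, pericytes and fibroblasts use many of the same chains.

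Total counts ran from 10506661 to 14686654 per library, and the 10 genes together took 0.066% to 0.128% of them. Marker genes of the myofibre (8 of 8 detected) summed to between 96942 and 178415 CPM (counts-per-million units, scaled by TMM factors) in every library. Markers of endothelial cells (7 genes) summed to between 510 and 1379 CPM, those of fibroblasts (7) to between 768 and 2461, and those of pericytes and smooth muscle (7) to between 509 and 1703, with no marker at 0 in all libraries. Less RNA of a cell type can mean fewer of its cells or less RNA in each, and these cannot be told apart in bulk libraries. Female weekly replicate 1 was at the low end for endothelial cells (510 CPM) and for pericytes (509 CPM), and female weekly replicate 2 was at the high end for both (1379 and 1703 CPM).

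Per length of exon, Itgb1 was the most abundant of the 10 genes. It stood at 57.5 ± 9.50 CPM per kilobase of exon (mean ± SD, n = 18), ahead of Lamb2 (35.0 ± 6.44), Itgb5 (26.6 ± 2.80), Lamc1 (16.5 ± 3.31) and Itga7 (9.77 ± 0.889). Itga5 (7.58 ± 2.79) and Itga6 (6.81 ± 1.93) followed, then Lama2 (3.41 ± 0.709), Itga3 (2.15 ± 0.751) and Ilk (1.76 ± 0.506). Among the alpha chains, that of the fibre's laminin receptor, Itga7, thus had the highest mean level, and Itga3 the lowest. Itga5 was above its neighbour Itga6 in 12 of 18 libraries and below Itga7 in 15 of 18, so these 3 neighbours overlapped widely. Itgb1 exceeded Lamb2, Itgb5 exceeded Lamc1, Lamc1 exceeded Itga7 and Itga6 exceeded Lama2 in all 18 libraries, although the ranges over libraries touched. Lamb2 was above Itgb5 in 17 libraries, Lama2 above Itga3 in 17, and Itga3 above Ilk in 16.

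**Figure D1:**
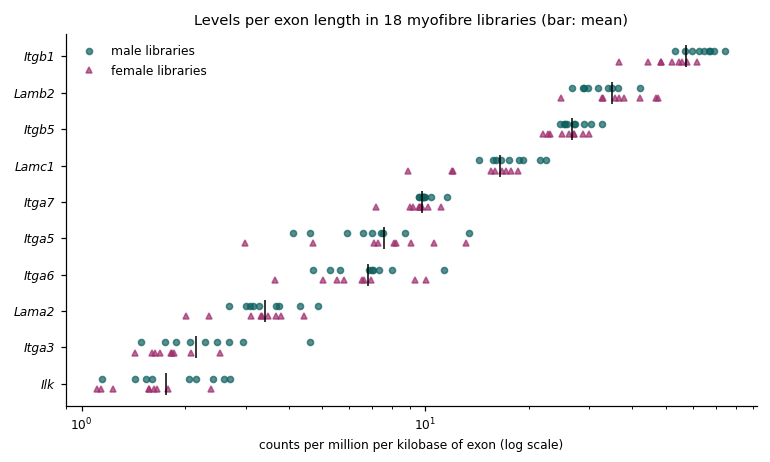
Level of each of the 10 genes in CPM per kilobase of exon, on a log axis, with a circle for each of the 9 male libraries, a triangle for each of the 9 female libraries and a bar for the mean of all 18. Itgb1 lies highest at a mean of 57.5 and Ilk lowest at 1.76, and the points of Itga5 and Itga6 spread more widely than those of Itga7 and Itgb5.

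The place of Ilk in that order depends on how reads were assigned. In the annotation, 2461 of the 2744 exonic bases of Ilk (89.7%, chr7:105736592-105742925 in mm10, plus strand) also lie in exons of Taf10 (2106 bases) or Rrp8 (355 bases) on the opposite strand. The strand setting of the counting is not given in the sources used here, and reads from Ilk and from these partners cannot be told apart without it. Dividing all counts of Ilk by its unshared bases alone gave 17.1 ± 4.90 CPM per kilobase. That value is a level only if reads on the shared bases were left uncounted, which is not known. Lama2 shared 3.86% and Itga7 0.111% of their exonic bases with another gene, and the other 7 genes shared none. The submitters' processing notes name both mm10 and mm9. The positions in the deposited table were those of GENCODE on mm10 for 7 of the 10 genes, and lay within 5 bases for Itga7, 3 for Itga5 and 185 for Itgb5. By that table (strand in parentheses), the alpha chains were placed as Itga3 at chr11:95044474-95076801 (minus), Itga6 at chr2:71745616-71858416 (plus), Itga7 at chr10:128933813-128958277 (plus) and Itga5 at chr15:103344289-103366763 (minus). The beta chains were placed as Itgb1 at chr8:128685654-128733200 (plus) and Itgb5 at chr16:33829665-33949153 (plus), and the laminins as Lama2 at chr10:26980036-27619758 (minus), Lamb2 at chr9:108479736-108490530 (plus) and Lamc1 at chr1:153218922-153332786 (minus).

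No member changed past the threshold under either prednisone schedule. In males on the daily schedule, 0 of the 10 genes were called by edgeR's quasi-likelihood test at an adjusted p under 0.05, while 6.46% of the 13596 tested genes were. In females on the daily schedule, 0 of 10 were called against 0.382% of all genes, and in the mean of both sexes 0 of 10 against 15%. Weekly prednisone gave 0 of 10 in males, in females and in the mean of both sexes, where the share over all genes was 0% each time. Without female weekly replicate 2, edgeR called 253 genes in weekly females and 174 in the mean of both sexes, and 0 of the 10. Over all genes, DESeq2 called 1, 152 and 183 in these 3 weekly comparisons and limma-voom 0, with 777, 1083 and 1492 at an unadjusted p under 0.05 in edgeR. The median log2 fold change of the 10 genes was 0.16 in daily males, 0.00 in daily females, 0.11 in weekly males and -0.14 in weekly females, beside 0.05, 0.01, 0.01 and 0.01 over all genes. At an unadjusted p under 0.05, 1 member passed in weekly males and 3 in the weekly mean of both sexes, and 0 in the other comparisons with vehicle. Of all genes, 5.71%, 7.97% and 10.97% passed it in weekly males, weekly females and the weekly mean of both sexes. In daily males, daily females and the daily mean of both sexes, 22.8%, 17.3% and 29.2% did. DESeq2 and limma-voom also called 0 members in each of these 6 comparisons. All of them share the vehicle libraries of their sex.

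A direct comparison of the schedules left the 10 genes equally uncalled. Daily against weekly libraries gave 0 of 10 in males, in females (0% of all genes in each) and in the mean of both sexes (8.17%), with 0 members at an unadjusted p under 0.05. The shares of all genes at that unadjusted threshold were 13.5%, 17.7% and 24.1%. Without female weekly replicate 1, 312 genes differed between the schedules in females, and 0 of the 10. A replicate block for the female daily and weekly libraries was added because their same-numbered members deviated together. The labels pair no mice between these groups. With that block, 522 of the 13596 genes differed between them, and 0 of the 10. The response of females minus that of males was called for 0 of 10 genes under daily and under weekly prednisone (0% of all genes in each). Again 0 had an unadjusted p under 0.05, beside 4.69% and 2.63% of all genes. DESeq2 and limma-voom called 0 of the 10 in these comparisons too. Over all genes, DESeq2 called 225 and 546 between the schedules in males and females, and 2 and 0 for the sex difference under daily and weekly prednisone, where edgeR had 1829, 2401, 638 and 357 at an unadjusted p under 0.05. The counts of limma-voom were 0, 2, 0 and 0.

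**Figure D2:**
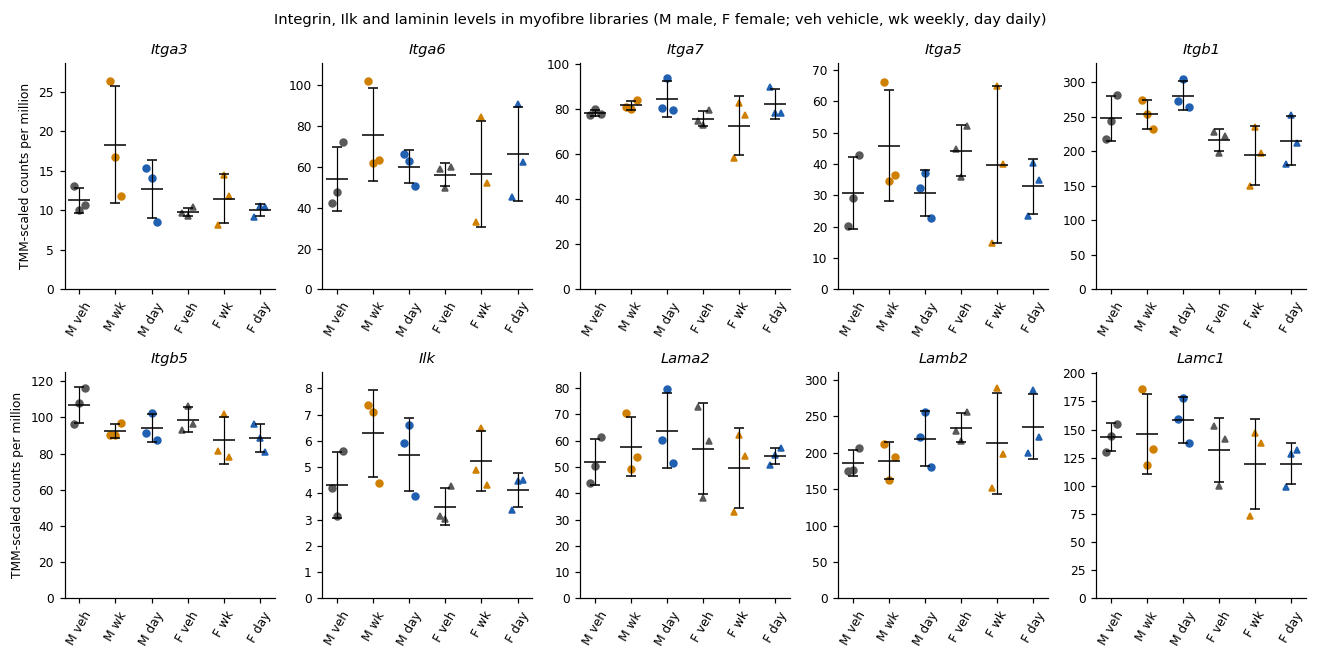
TMM-scaled CPM of each gene in the 3 libraries of each of the 6 groups (circles male, triangles female, bar and whiskers mean ± SD), with axes from 0. Male weekly replicate 1 is highest of the 18 for Itga3, Itga5 and Itga6, at 26.4, 66.2 and 102 CPM, and female weekly replicate 1 is lowest for Itga5, Itga6 and Itga7, at 14.7, 33.0 and 58.0 CPM.

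Itga7 was the steadiest alpha chain. Its level was 77.4, 79.8 and 77.7 CPM in male vehicle, 80.8, 79.7 and 83.9 in male weekly and 80.3, 93.7 and 79.3 in male daily libraries. In females it was 74.6, 72.9 and 79.3 CPM with vehicle, 58.0, 82.4 and 77.3 with the weekly and 89.7, 77.9 and 78.3 with the daily schedule. Only female weekly replicate 1 (58.0) fell clearly under the rest, and treated and vehicle libraries overlapped in every pair of groups. In the mean of both sexes the log2 fold change was -0.00 ± 0.089 (SE) under weekly prednisone, with a 95% interval from -0.19 to 0.19 (adjusted p = 0.998, edgeR). Under daily prednisone it was 0.11 ± 0.089, from -0.08 to 0.30 (adjusted p = 0.442). In folds, the weekly interval ran from 0.88 to 1.14 and the daily interval from 0.95 to 1.23.

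Itga3, an alpha chain that binds laminins, had the largest rise of the 10 in weekly males. It measured 13.1, 10.01 and 10.7 CPM in male vehicle, 26.4, 16.8 and 11.8 in male weekly and 15.4, 14.1 and 8.52 in male daily libraries. The weekly libraries reached above the vehicle libraries in 2 of 3 mice, and the third lay inside the vehicle range. The log2 fold change was 0.70 ± 0.27 (unadjusted p = 0.0196, adjusted p = 0.849, edgeR), with a 95% interval from 0.13 to 1.27. Without male weekly replicate 1 it fell to 0.34 ± 0.26. That library also held the highest Itga5 and Itga6 of all 18, and within its group the highest sums of fibroblast markers (2226 CPM), pericyte markers (1457) and Schwann cell markers (224), whose part in the result was not tested.

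In females, Itga3 measured 9.65, 9.34 and 10.4 CPM with vehicle, 8.18, 14.5 and 11.9 with the weekly schedule and 9.14, 10.6 and 10.5 with the daily schedule. The weekly libraries lay on both sides of the vehicle libraries, and the daily ones overlapped them. The female weekly change was 0.22 ± 0.27 on the log2 scale (adjusted p = 0.949), and that of both sexes together was 0.46 ± 0.19 (unadjusted p = 0.0285, adjusted p = 0.380, edgeR), ranging from 0.27 to 0.58 as each library was left out. Daily prednisone gave 0.11 ± 0.19 in the mean of both sexes, with an interval from -0.30 to 0.51. Daily against weekly libraries differed by -0.35 ± 0.19 (adjusted p = 0.272), with 86 to 300 reads on the gene in a library.

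Itga6, which forms laminin receptors with Itgb1 or Itgb4 and is prominent in vessels, varied more than 3-fold over the libraries. Its levels were 42.5, 47.7 and 72.2 CPM in male vehicle, 102, 61.8 and 63.3 in male weekly and 66.3, 63.1 and 50.8 in male daily libraries. In females they were 59.1, 49.8 and 59.7 with vehicle, 33.0, 84.2 and 52.3 with the weekly and 45.4, 90.8 and 62.6 with the daily schedule. Treated and vehicle groups overlapped each time, and the extremes of the female weekly group, 33.0 and 84.2, came from the libraries lowest and highest in endothelial markers. Within that group, these libraries were also lowest and highest in fibroblast markers (818 and 2183 CPM) and in pericyte markers (509 and 1703 CPM). Mitochondrial genes took 13.1% and 36.4% of their counts, and the part of these differences was not tested. The log2 fold changes of Itga6 were 0.49 ± 0.32 in weekly males, 0.00 ± 0.32 in weekly females, 0.15 ± 0.32 in daily males and 0.24 ± 0.32 in daily females (adjusted p from 0.741 to 0.999, edgeR). With the endothelial score as a covariate, the change in daily females became 0.63 ± 0.17 (adjusted p = 0.0316), which was the sole call of a member in any alternative to the comparisons with vehicle. That setting called 6.7% of all genes in daily females and gave -0.19 ± 0.16 for Itga6 in daily males.

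Itga5, the alpha chain of the fibronectin receptor, was the most variable of the 10 genes, with a 4.49-fold range. It measured 20.3, 29.2 and 43.0 CPM in male vehicle, 66.2, 34.5 and 36.7 in male weekly and 32.4, 37.2 and 22.8 in male daily libraries. Female libraries held 44.8, 35.9 and 52.1 CPM with vehicle, 14.7, 64.8 and 40.0 with the weekly and 23.3, 40.4 and 34.9 with the daily schedule. The groups overlapped, and the lowest and highest values of females again came from weekly replicates 1 and 2. Because of this spread the intervals were wide, from -0.34 to 1.48 in weekly males around 0.57, and from -1.34 to 0.48 in daily females around -0.43 (adjusted p = 0.860 and 0.641, edgeR). Without female weekly replicate 1 the weekly change in females went from -0.16 to 0.24, and without male weekly replicate 1 that of males went to 0.20. In daily females the value turned to 0.17 ± 0.23 with the endothelial covariate and to 0.12 ± 0.58 with the adipocyte covariate, and in weekly males it became 0.29 ± 0.22 and 0.94 ± 0.50.

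**Figure D3:**
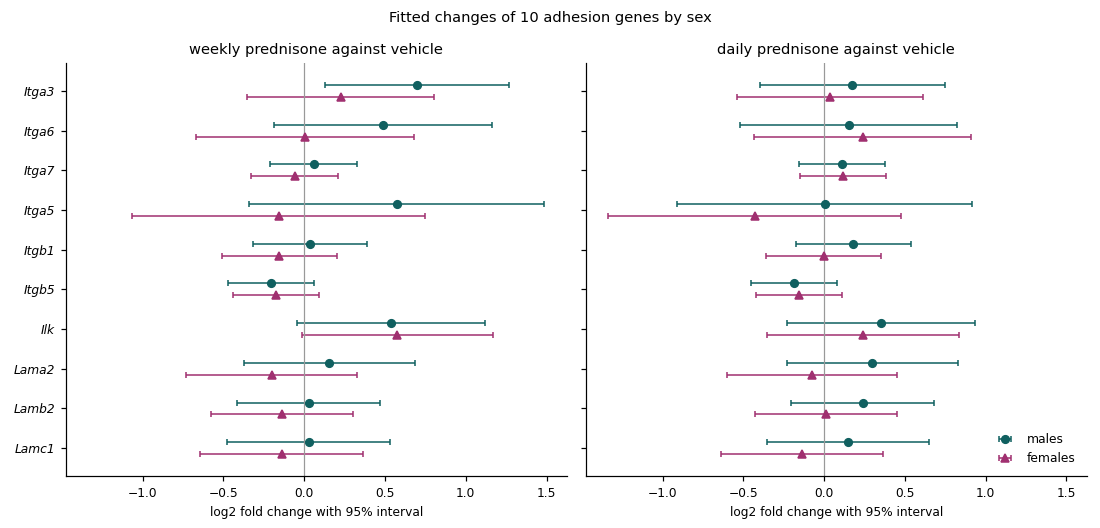
Log2 fold change of each gene against vehicle in males (circles) and females (triangles), with 95% intervals from the edgeR fit, for weekly (left) and daily (right) prednisone. Every interval spans 0 except that of Itga3 in weekly males (0.13 to 1.27), and intervals are widest for Itga5 and narrowest for Itga7 and Itgb5.

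Itgb1 encodes the beta chain that all 4 of these alpha chains pair with. Its levels were 217, 244 and 281 CPM in male vehicle, 274, 255 and 232 in male weekly and 273, 305 and 264 in male daily libraries. In females they were 228, 198 and 223 with vehicle, 149.8, 235 and 198 with the weekly and 181, 253 and 213 with the daily schedule. Treated libraries overlapped vehicle libraries in both sexes, and the male values tended to lie above the female ones. The log2 fold change in the mean of both sexes was 0.09 ± 0.12 under daily prednisone (interval from -0.16 to 0.34) and -0.06 ± 0.12 under weekly prednisone (from -0.31 to 0.19).

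Itgb5, which pairs with the alpha chain Itgav to bind vitronectin, was lower than in vehicle in each of the 4 comparisons, and none passed the threshold. It measured 96.3, 108 and 116 CPM in male vehicle, 90.4, 90.2 and 97.0 in male weekly and 91.6, 103 and 87.7 in male daily libraries. In females it measured 93.1, 106 and 96.4 with vehicle, 81.7, 102 and 78.1 with the weekly and 96.4, 88.8 and 81.0 with the daily schedule. The groups overlapped, in weekly males only through the lowest vehicle library (96.3) and the highest weekly library (97.0). The log2 fold changes were -0.21 ± 0.13 and -0.18 ± 0.13 in weekly males and females, and -0.18 ± 0.13 and -0.15 ± 0.13 in daily males and females. In the mean of both sexes they were -0.19 ± 0.089 for weekly (unadjusted p = 0.0465, adjusted p = 0.444, edgeR) and -0.17 ± 0.089 for daily prednisone (adjusted p = 0.224). With the adipocyte score as a covariate the values were 0.01 and 0.10 in daily males and females. In weekly males and females they were -0.02 and 0.06, so the sign changed in 3 of 4. Summed adipocyte markers reached at most 153 CPM in vehicle libraries and were at least 171 CPM in every treated library. Treatment and the score can therefore hardly be told apart in this fit, and no direction is read from it. Both schedules are measured against the same vehicle mice, so the changes under the schedules are not independent.

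Ilk, the kinase-like adaptor that binds the tails of beta chains, had the largest value of the 10 genes in weekly females, from few reads. Its level was 4.21, 3.14 and 5.62 CPM in male vehicle, 7.39, 7.11 and 4.39 in male weekly and 5.91, 6.60 and 3.92 in male daily libraries. Female libraries held 3.13, 3.04 and 4.30 CPM with vehicle, 4.89, 6.51 and 4.32 with the weekly and 3.38, 4.47 and 4.53 with the daily schedule. The 3 female weekly libraries all lay above the 3 female vehicle libraries, the closest pair being 4.32 and 4.30, while in males the groups overlapped. Ilk was the sole member whose groups were apart in weekly females, where 8.07% of all tested genes were. No member was apart in weekly males (16.7% of all genes), daily males (33.4%) or daily females (23.1%).

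The log2 fold change of Ilk under weekly prednisone was 0.54 ± 0.27 in males, 0.58 ± 0.28 in females and 0.56 ± 0.20 in the mean of both sexes (unadjusted p = 0.0117, adjusted p = 0.304, edgeR). Leaving out each library in turn moved the last value between 0.46 and 0.67. Under daily prednisone it was 0.30 ± 0.20 (interval from -0.12 to 0.71). These values rest on 28 to 105 reads per library from a gene that overlaps Taf10 and Rrp8, so they are uncertain. Taf10, which encodes a subunit of a general transcription factor, stood at 23.1 to 50.1 CPM and had a weekly change of 0.04 ± 0.12 in the mean of both sexes. Rrp8, a ribosomal RNA processing gene, stood at 9.39 to 15.8 CPM with a weekly change of -0.10 ± 0.10. Neither partner was called in that weekly mean (adjusted p = 0.927 and 0.745, edgeR), and neither was Ilk nor any other gene. The test therefore does not set the partners apart from Ilk. In weekly females Taf10 changed by 0.20 ± 0.17 and Rrp8 by -0.19 ± 0.14. In weekly males they changed by -0.11 ± 0.17 and -0.01 ± 0.14. The part of overlapping reads in the values of Ilk was not tested.

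The laminin chains also kept within their spread. Lama2, the alpha chain of muscle laminin, measured 44.0, 50.5 and 61.3 CPM in male vehicle, 70.6, 49.1 and 53.7 in male weekly and 60.2, 79.7 and 51.6 in male daily libraries. In females it measured 72.7, 38.2 and 60.1 with vehicle, 32.8, 62.0 and 54.2 with the weekly and 50.8, 54.7 and 57.1 with the daily schedule. All groups overlapped, with female vehicle libraries spread from 38.2 to 72.7 and female weekly libraries from 32.8 to 62.0. The log2 fold change in the mean of both sexes was 0.11 ± 0.18 under daily prednisone (interval from -0.26 to 0.49) and -0.02 ± 0.18 under weekly prednisone (from -0.40 to 0.35).

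Lamb2, a beta chain found at the synapse and in vessel walls, measured 175, 176 and 206 CPM in male vehicle, 212, 162 and 194 in male weekly and 221, 256 and 180.4 in male daily libraries. In females it measured 230.3, 216 and 256 with vehicle, 151, 288 and 199 with the weekly and 199.7, 285 and 222 with the daily schedule. Treated groups overlapped vehicle in each sex, and Lamb2 was not called between female and male vehicle libraries. Its change was 0.12 ± 0.15 under daily (interval from -0.19 to 0.44) and -0.06 ± 0.15 under weekly prednisone (from -0.37 to 0.26).

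Lamc1, the gamma chain of most laminins, measured 129.8, 145 and 155 CPM in male vehicle, 186, 118 and 133 in male weekly and 159.5, 178 and 138 in male daily libraries. Female libraries held 153, 99.6 and 142 CPM with vehicle, 73.7, 147 and 138 with the weekly and 98.8, 129 and 132 with the daily schedule. The groups overlapped again, and the lowest of all 18 values came from female weekly replicate 1. The change was 0.01 ± 0.17 under daily (interval from -0.35 to 0.36) and -0.06 ± 0.17 under weekly prednisone (from -0.41 to 0.30).

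Ratios of chains that share a complex do not depend on how libraries are scaled, so 6 such ratios of counts were compared within libraries. Each alpha chain was divided by Itgb1, and Lama2 and Lamb2 by Lamc1. Of 12 tests (each ratio, each schedule, an exact permutation of treatment labels within sex, two-sided), 0 passed after Benjamini-Hochberg adjustment. The smallest p that 400 relabellings allow is 0.005. Over 12 tests, a ratio standing alone at that p could not pass the adjusted threshold of 0.05. The count of 0 therefore cannot decide whether a single ratio shifted. The ratio of Itga3 to Itgb1 moved most. In females it was 0.0424, 0.0473 and 0.0467 with vehicle and 0.0546, 0.0614 and 0.0600 with weekly prednisone, so all 3 weekly libraries lay above. In males it was 0.0602, 0.0410 and 0.0381 with vehicle and 0.0962, 0.0660 and 0.0507 with weekly prednisone, with overlap of the highest vehicle and the lowest weekly library. The log2 difference was 0.48 in the mean of both sexes, 0.59 in males and 0.37 in females (exact permutation p = 0.02, adjusted p = 0.24). With daily prednisone the same ratio differed by -0.00 (exact permutation p = 0.99).

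Among the other ratios, Itga5 to Itgb1 under daily prednisone had the next smallest p, with a log2 difference of -0.29 (exact permutation p = 0.09, adjusted p = 0.465). The ratio of Itga7 to Itgb1 differed by 0.02 under daily and by 0.06 under weekly prednisone (exact permutation p = 0.855 and 0.445). The laminin ratios moved by 0.12 and 0.06 for Lama2 and by 0.10 and 0.01 for Lamb2 under daily and weekly prednisone (exact permutation p from 0.155 to 0.95).

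**Figure D4:**
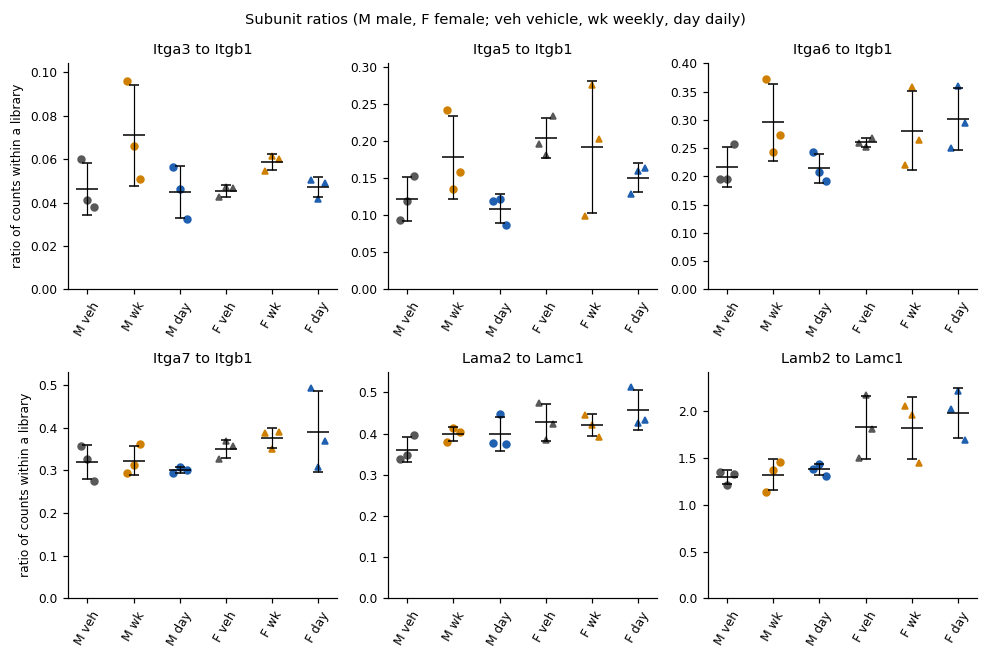
Ratio of counts of 2 chains within each library for 6 pairs, by group (circles male, triangles female, bar and whiskers mean ± SD), with axes from 0. The Lamb2 to Lamc1 ratio runs from 1.14 to 1.46 in male and from 1.44 to 2.22 in female libraries, while treatment groups of a sex overlap in most panels.

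Lamb2 was more abundant relative to Lamc1 in females than in males. The comparison of ratios between the sexes was added after the ratios had been seen. The Lamb2 to Lamc1 ratio was 1.35, 1.22 and 1.33 in male vehicle, 1.14, 1.37 and 1.46 in male weekly and 1.39, 1.43 and 1.31 in male daily libraries. In females it was 1.501, 2.17 and 1.81 with vehicle, 2.05, 1.96 and 1.44 with the weekly and 2.02, 2.22 and 1.69 with the daily schedule. Of the 9 female libraries, 8 lay above the highest male library (1.46), and the ninth, a weekly library, lay just under it at 1.44. The female minus male difference was 0.48 on the log2 scale, and it was 0.48 with vehicle, 0.45 with weekly and 0.51 with daily prednisone. An exact permutation of sex labels within treatment gave p = 0.0005 (adjusted over 6 ratios, p = 0.003), where 8000 relabellings allow no p below 0.00025. It stayed between 0.44 and 0.53 as each library was left out. From the fit it was 0.47, and 0.44 after trends on transcript length and GC content were removed.

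The Itga7 to Itgb1 ratio was also higher in females, at a median of 0.368 (range 0.309 to 0.494) against 0.308 in males (0.276 to 0.361), by 0.24 on the log2 scale (exact permutation p = 0.00625, adjusted p = 0.0188). Lama2 to Lamc1 was 0.426 (0.384 to 0.514) in females and 0.380 (0.339 to 0.447) in males, a difference of 0.17 (exact permutation p = 0.0118, adjusted p = 0.0235). These 2 calls were lost when male daily replicate 1 or 3 was left out (adjusted p of 0.0515 or 0.052), and that of Lama2 also without female daily replicate 1 (0.05). Itga5 to Itgb1 (0.42, adjusted p = 0.0803), Itga6 to Itgb1 (0.23, adjusted p = 0.111) and Itga3 to Itgb1 (-0.04, adjusted p = 0.764) did not pass. Without male weekly replicate 1 or female weekly replicate 1, the ratios of Itga5 (0.50 and 0.56) and Itga6 (0.29 and 0.28) to Itgb1 did pass.

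Of single genes, 0 of 10 were called between female and male vehicle libraries (0.765% of all genes), nor by DESeq2 or limma-voom. Before adjustment 0 had a p under 0.05, beside 10.4% of all genes. Over all treatments, a comparison added after the levels had been seen, 0 of 10 were called by edgeR (7.61% of all genes). At an unadjusted p under 0.05 there were 2, beside 22.5% of all genes. Itgb1 stood just outside, at -0.32 ± 0.097 in females against males (adjusted p = 0.0536). DESeq2 (adjusted p = 0.0120) and limma-voom (0.0466) called it. Lower values in females were also seen for Itga3 (-0.41 ± 0.16, adjusted p = 0.128), Ilk (-0.33 ± 0.16, 0.235) and Lamc1 (-0.27 ± 0.14, 0.260), and a higher value for Lamb2 (0.20 ± 0.12, 0.344, all edgeR). Endothelial, fibroblast and pericyte markers had median log2 differences of 0.06, 0.06 and -0.07 in the same comparison. Those of adipocyte, satellite cell, Schwann cell, macrophage, blood and myofibre markers were 1.38, -0.59, 0.23, 0.14, -0.29 and -0.02. Between vehicle libraries alone, endothelial, fibroblast and pericyte markers stood at 0.38, 0.22 and 0.51. The part of cell make-up in the sex differences was not tested.

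The wider set of adhesion genes held 64 further names (20 other integrins, 8 other laminins, 25 genes of the adhesion plaque and 11 of the basement membrane and its binders), of which 59 were tested. In daily males 1 of these rose and 1 fell, so that 2 of 59 were called beside 6.46% of all genes. Vcl (vinculin), which links talin to actin, stood at 41.9, 39.2 and 40.5 CPM with vehicle and at 66.5, 70.4 and 68.0 with daily prednisone. Its log2 fold change was 0.75 ± 0.21 (adjusted p = 0.0455, edgeR). Itgb1bp1 binds the tail of the Itgb1 chain and competes with activators of the integrin. It stood at 20.8, 21.7 and 21.03 CPM with vehicle and at 14.9, 15.97 and 13.6 with daily prednisone (-0.51 ± 0.14, adjusted p = 0.0351, edgeR). Daily and vehicle libraries did not overlap for either gene. The same held for 33.4% of all tested genes, and among the 59 for 8 that lay above vehicle and 4 below. Both calls were lost whichever of the 6 libraries was left out, with values from 0.73 to 0.79 for Vcl and from -0.57 to -0.42 for Itgb1bp1. Both were also lost with the adipocyte covariate (0.91 and -0.52) and with length and GC trends removed (0.55 and -0.44), Vcl with the endothelial covariate (0.63) and Itgb1bp1 with no filter (-0.48).

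In daily females 0 of 59 passed edgeR's test (12 at an unadjusted p under 0.05, where 17.3% of all genes were, 1 called by DESeq2 and 0 by limma-voom). In the mean of both sexes, 4 rose and 1 fell under daily prednisone, or 5 of 59 beside 15% of all genes. These were Vcl (0.67 ± 0.15), Itga4 (0.51 ± 0.14), an alpha chain of leukocytes, Dag1 (0.42 ± 0.099), which encodes dystroglycan, the other main laminin receptor of muscle, Fermt2 (0.30 ± 0.084), which encodes an activator of integrins, and Itgb1bp1 (-0.49 ± 0.096), with adjusted p from 0.0036 to 0.0236. With the adipocyte score as a covariate these 5 calls were lost, as were all 2033 calls of the comparison, while the values were 0.85 for Vcl, 0.34 for Itga4, 0.43 for Dag1, 0.25 for Fermt2 and -0.50 for Itgb1bp1. The calls of Itga4, Dag1 and Fermt2 were also lost once length and GC trends were removed. The summed adipocyte markers (7 genes) ranged from 44.1 to 153 CPM in vehicle libraries and from 223 to 1880 in daily ones. These ranges do not overlap, so treatment and the score can hardly be told apart in the fit with the adipocyte score. The part of these markers in the result was not tested.

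Weekly prednisone gave 0 calls among the 59 in either sex or in their mean by edgeR, DESeq2 and limma-voom. Before adjustment, 4 genes in males, 2 in females and 3 in the mean had a p under 0.05. The shares of all tested genes at that unadjusted threshold were 5.71%, 7.97% and 10.97%. Daily against weekly libraries gave 2 genes higher (Dag1 and Tln2) and 2 lower (Itgb1bp1 and Cd81) with daily prednisone in the mean of both sexes, or 4 of 59 beside 8.17% of all genes. These 4 were named after their values were seen. The calls of Tln2, Itgb1bp1 and Cd81 were lost with a replicate block over all groups and with the compared groups alone, and all 4 with length and GC trends removed. Those of Itgb1bp1 and Cd81 were also lost with no filter. In the 12 fits without 1 library, the call of Dag1 held in 12, Tln2 in 7, Itgb1bp1 in 3 and Cd81 in 3. In either sex alone 0 were called, where 4 in males and 9 in females had an unadjusted p under 0.05, beside 13.5% and 17.7% of all genes. Within a sex, limma-voom called 0 of the 59, and DESeq2 called 2 among females and 0 among males. With the replicate block in females, a pairing that the labels do not give, 1 of the 59 was called, beside 522 of all 13596 genes. It was Dag1, which was higher in daily than in weekly libraries (0.62 ± 0.13, adjusted p = 0.0302, edgeR). Against vehicle, the median log2 fold change of the 59 genes was 0.23 in daily males and -0.17 in daily females, with 45 and 20 of 59 values above 0. The medians of endothelial markers in the same comparisons were 0.34 and -0.41, those of fibroblast markers 0.40 and -0.39 and those of pericyte markers 0.41 and -0.29, and their part in the result was not tested. Between the sexes over all treatments, 0 of the 59 genes were higher in females and 5 were lower, beside 7.61% of all genes called. These were Itgb6, Vcl, Parvb, Fermt2 and Cd151, named after their values were seen. Itgb6 was not lower in females under every treatment. It averaged 6.33 CPM in female and 22.2 in male vehicle libraries, but 16.5 in female and 12.5 in male daily libraries. The calls of Itgb6, Fermt2 and Cd151 were lost with the replicate block and held in 6, 4 and 12 of 18 fits without 1 library, and with the adipocyte covariate the call of Parvb held and the other 4 were lost.

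**Figure D5:**
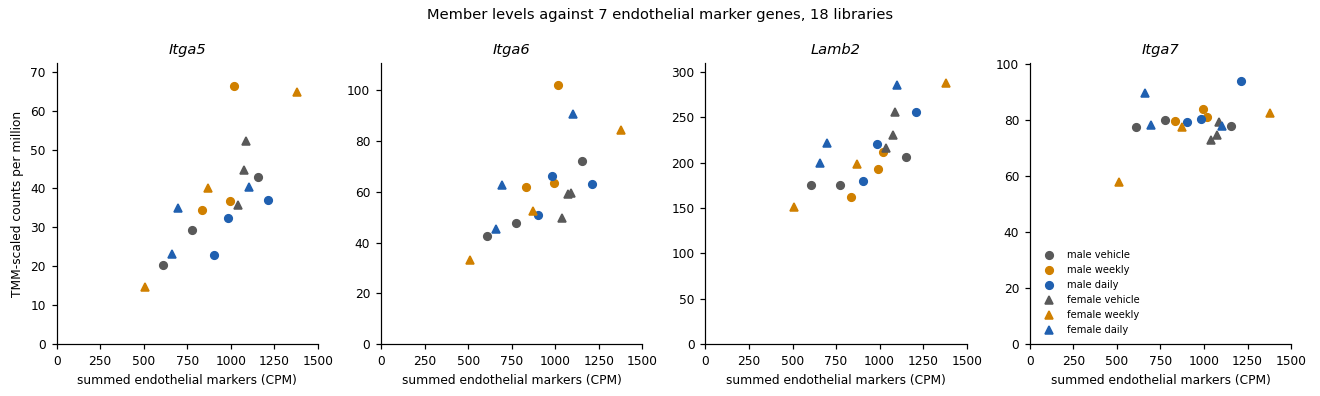
Level of Itga5, Itga6, Lamb2 and Itga7 (CPM, from 0) against the sum of 7 endothelial marker genes (CPM) in the 18 libraries, with colours for treatment, circles for male and triangles for female. Female weekly replicate 1, at 510 CPM of endothelial markers, is lowest for all 4 genes (14.7, 33.0, 151 and 58.0 CPM), and Itga7 stays nearly level across the other libraries.

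Across the 18 libraries, each gene's closest companions were listed by the Pearson correlation of log2 CPM. This is a description over points that share treatment groups and cell make-up. Itga5 was most like Plekhg2 (r = 0.945) and S1pr3 (0.940), and Itga6 most like Ppp1r18 (0.929) and Rapgef5 (0.913). Lamb2 was most like Magi1 (0.934) and Vwf (0.925), the latter a classical product of endothelial cells. Itgb1 was most like Il1r1 (0.936) and Esyt2 (0.928), Lamc1 most like Egfr (0.930) and Ltbp1 (0.903), and Itga3 most like Jag2 (0.914) and Adamts9 (0.911). Weaker companions were found for Ilk, with Pdlim1 (0.837) and Htt (0.822), for Itga7, with Abl1 (0.836), and for Itgb5, with mt-Nd4l (0.785) and Lama3 (0.775).

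Lama2 was the sole member whose closest companion was another member, Lamc1 (r = 0.888), with Clip3 next (0.882). Within the 10 genes, Itgb1 and Lamc1 (0.853) and Itga5 and Itga6 (0.850) were the next closest pairs. The 9 correlations of Itgb5 ran from -0.07 with Ilk to 0.389 with Itgb1, and those of Lamb2 with Ilk (0.139) and Itga3 (0.149) were also low.

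RefSeq promoter windows of 300 bases (GRCm38.p6) were at hand for 7 of the 10 genes, in 9 windows. The motif ACANNNTGT, read on either strand and the core of the glucocorticoid receptor's binding sites, occurred in 0 of the 9 windows and in 6.85% of 32851 windows of all genes. No match says only that these letters are not in these windows.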

How the data were processed

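Polyadenylated RNA of isolated quadriceps myofibers was sequenced, with 1 library per mouse. The authors deposited whole-number read counts per gene, without normalization. Per the labels' processing notes, TopHat2 2.1.0, Bowtie2 2.2.6 and HTSeq were used, with mm10 and mm9 both named as builds. The strand setting and annotation release are not given in the sources used here. Counts from overlapping genes, such as Ilk, are therefore uncertain.

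The main test was run in edgeR 4.0.16 under R 4.3.3 (filterByExpr with a minimum count of 10, TMM factors, robust quasi-likelihood fit of 6 group means over 18 libraries). In each of 12 comparisons p values were adjusted over 13596 genes by Benjamini-Hochberg, with calls at an adjusted p under 0.05. A standard error is the fold change (log2) divided by the root of F. Levels per kilobase used the union of exons in GENCODE release 21. Alternatives were DESeq2 1.42.0 and its size factors, limma-voom (limma 3.58.1), other filters (none, or a minimum count of 50), a block on the replicate number, the compared groups alone, adipocyte or endothelial scores as covariates, length and GC trends removed (splines of 5 degrees of freedom), and leaving out each library. The steps were tested on simulated data. Replicate numbers were those of the sample titles, which do not pair mice between groups, and the column headers number the libraries differently. Same-numbered libraries of the female daily and weekly groups deviated together (r = 0.501, 0.483 and 0.439), so a fit blocking these 2 groups was added. In the other pairs of groups at least 1 of the 3 same-numbered pairs had r below 0.1.

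All 10 genes are named throughout, with their 2 most correlated tested genes (unnamed gene models passed over). Of the wider set, called genes in comparisons with vehicle are named, up to 8 each. The genes, sets and tests were chosen with earlier results of these data known.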

Additional observations from a re-analysis of the deposited data

How the results depend on the processing

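In the 12 planned comparisons, 0 members were called under every alternative run, except for 1 (Itga6, daily females) with the endothelial score as a covariate. Between the sexes over all treatments, 1 member (Itgb1) was called with DESeq2 size factors, DESeq2, limma-voom, the endothelial covariate and length and GC trends removed, and without female weekly or female daily replicate 2, so that the count ran from 0 to 1 as libraries were left out. The cause was not tested. Of 2510 alternative values of the 130 member fold changes, 2425 lay within 1 standard error of the reported value and 85 moved further. Among them 203 changed sign, and 0 of those that changed sign were called. The replicate block left the count of called members at 0 in every comparison, including the added block of the female daily and weekly libraries, and it changed no ratio call (Itga3 to Itgb1 weekly, adjusted p = 0.375).

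As libraries were left out, the ratio differences between the sexes ran from 0.18 to 0.29 for Itga7 to Itgb1, from 0.14 to 0.20 for Lama2 to Lamc1, from 0.32 to 0.56 for Itga5 to Itgb1, and from 0.17 to 0.29 for Itga6 to Itgb1.

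The number of called genes overall moved more. In daily females it was 52 with edgeR, 530 with DESeq2, 198 with the stricter filter, 29 with no filter, 911 with the endothelial covariate, and 0 with the block, the adipocyte covariate, length and GC trends removed or the compared groups alone. In daily males it was 878, against 1383 with DESeq2, 1530 with the compared groups alone, 62 with length and GC trends removed, 25 with the adipocyte covariate, and 92 to 414 with a library left out. In the daily mean of both sexes it was 2033, against 684 with those trends removed and 0 with the adipocyte covariate. With a library left out the daily female count ran from 0 to 126, the weekly female count from 0 to 253 and the count of the weekly mean from 0 to 174, the last 2 above 0 only without female weekly replicate 2. In weekly females DESeq2 called 152 genes where edgeR called 0. Ilk and Itga3 had as few as 28 and 86 reads in a library.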
